A study of Mus musculus with 8 samples.

Results

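Ptprc, Coro1a, Lcp1, Laptm5, Aif1, Cd68, Csf1r, Lyz2, Cybb and Chil3, 10 mouse genes known as transcripts of leukocytes in general or of macrophages in particular, were followed in lymphatic endothelial cells (LECs) sorted from ear skin. They were taken as every probe set of the array whose platform annotation names 1 of these genes and no other, which gave 22 probe sets of 10 genes among 45037 probe sets and 18193 genes that have a probe set of their own. The cells had been sorted by flow cytometry as CD31-positive, podoplanin-positive and CD45-negative, and CD45 is the protein made from Ptprc, so the sort selected against 1 of the 10 gene products at the cell surface. The comparison addresses how much of this leukocyte RNA was measured in the sorted cells of inflamed and of resting skin.

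The inflamed group came from female FVB mice with contact hypersensitivity, an allergic skin inflammation: oxazolone, a contact allergen, was painted on at 2% over abdomen and paws, a 1% challenge followed on both ear sides after 5 days, and ears were taken 24 hours after it. The untreated group came from healthy female FVB mice. Each group had 4 samples, each sorted from 3 pooled mice aged 8 to 10 weeks, and the 8 samples formed 4 pairs of 1 inflamed and 1 untreated sample that shared a day of sorting and RNA extraction. The labels name no transgene, deletion or further agent in either group. RNA was amplified before it was hybridised to 1 array per sample, and the values are MAS5 signals on a linear scale.

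Leukocytes share a set of surface and cytoskeletal proteins that other cells mostly lack. CD45 is a tyrosine phosphatase that sets the threshold of antigen receptor signalling, and coronin 1A and L-plastin organise the actin of moving leukocytes. Macrophages add a receptor for the growth factor CSF1, lysosomal proteins for the breakdown of what they engulf, and enzymes that make reactive oxygen. In skin they sit in the dermis close to lymphatic vessels, and monocytes and neutrophils join them during contact hypersensitivity.

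The arrays had mean signals between 126.2 and 160.4. To mark what could not be told from background, a ceiling was set on each array at the 95th percentile of 27 bacterial control probe sets, and it lay between 5.79 and 9.94. As a check of the cell type label, all 9 measured lymphatic endothelial genes, Prox1, Lyve1 and Pdpn among them, were above the ceiling on all 8 arrays. Arrays 4 of the inflamed and 2 of the untreated group stood apart in the leukocyte genes. Inflamed array 4 was the highest of its group for 8 of the 10 genes and of all 8 arrays for 7, and untreated array 2 was the highest of its group for 6.

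Transcripts of all 10 genes had a higher mean log2 signal in inflamed than in untreated samples, but only 3 passed the test, each of them higher: Chil3, Lcp1 and Aif1. The test was limma on log2 signal with the pair as a block, adjusted by Benjamini-Hochberg over 10843 genes that passed a filter on mean signal, at a threshold of 0.05. Of the 10 genes 8 passed the filter, while Ptprc and Cybb were too dim. The 3 calls among 8 tested genes stand beside 3.91% of all tested genes called higher, and 0 of the 8 were lower, beside 3.02% of all tested genes. A dim gene could pass the filter through high inflamed signals alone, so the count among tested genes is not a count over all 10. Without the filter all 10 genes were tested among 18193, and 2 of them, Chil3 and Lcp1, were called higher, beside 2.18% of all genes, and 0 were lower, beside 1.66%.

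The groups did not overlap for 3 of the 10 genes, Chil3, Lcp1 and Coro1a, with every inflamed signal above every untreated one, as for 4.56% of all 18193 genes. Without pair 2 this count was 6 of 10, beside 8.53% of all genes, and without pair 4 it was 5, beside 8.52%. These pairs were chosen after their arrays were seen to stand apart in the same genes, so the counts describe the values and test nothing. For 6 genes the inflamed signal was the higher one in all 4 pairs (Ptprc, Coro1a, Lcp1, Aif1, Cybb and Chil3), as for 11.5% of all genes. The median change of the 10 genes, as a difference of mean log2 signal between inflamed and untreated samples, was 2.76, beside -0.04 over all genes on the array. With the 3 genes that never exceeded the ceiling in untreated samples set against the untreated ceilings instead, the median of the 10 was 1.90. Without pair 4, 9 of the 10 means were higher and the median change was 1.75. Without pair 2, all 10 were higher and the median change was 3.21.

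**Figure D1:**
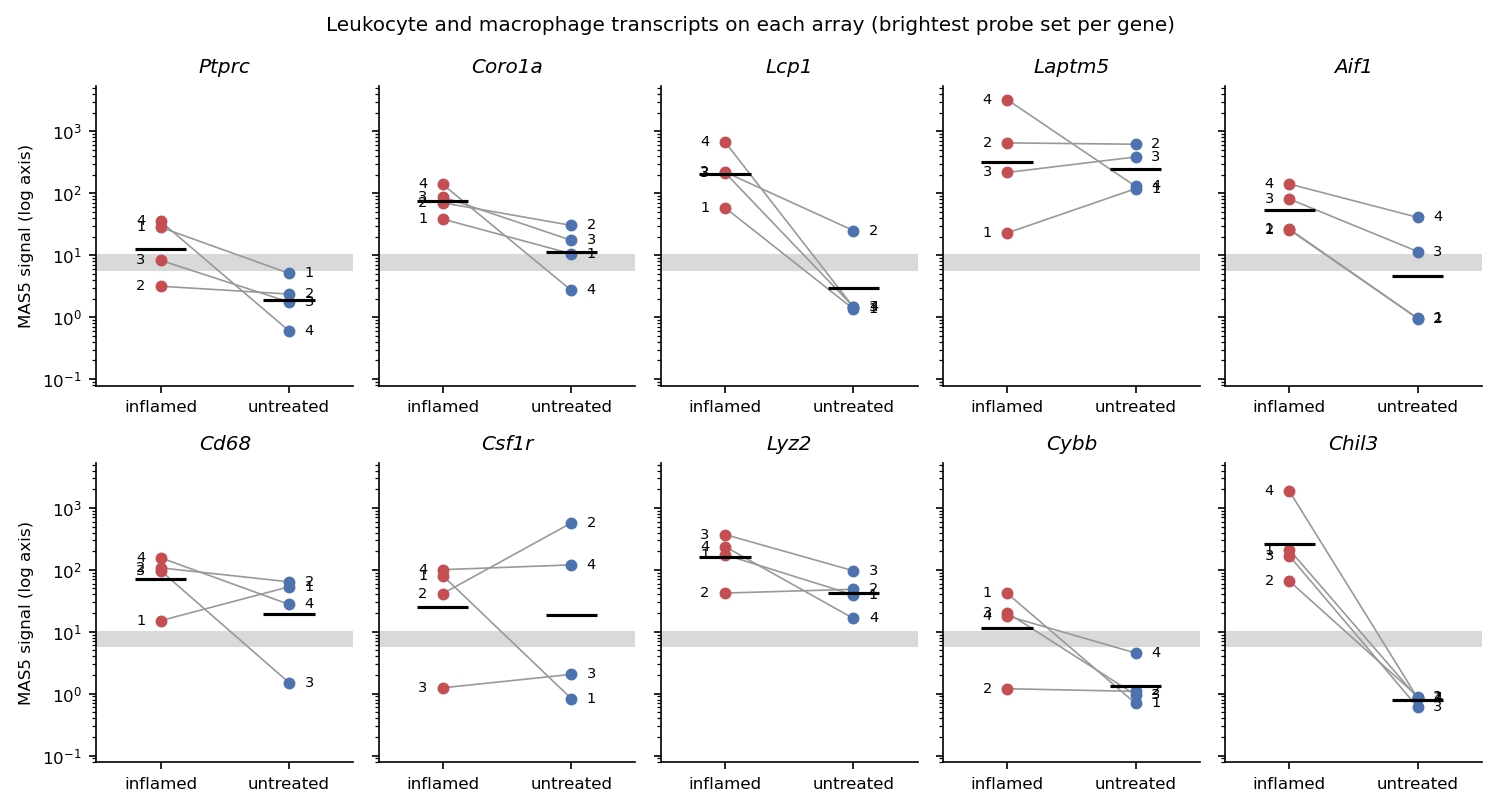
MAS5 signal (log axis) of each of the 10 genes, from its brightest probe set, on the inflamed (left, red) and untreated (right, blue) arrays, with lines joining pairs, numbers giving the pair, black bars at the mean of log2 signal of 4 arrays and a grey band over the range of background ceilings (5.79 to 9.94). The Chil3, Lcp1 and Coro1a groups do not overlap, while the lines of Csf1r and Laptm5 run both ways.

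Among Ptprc, Coro1a, Lcp1 and Laptm5, the pan-leukocyte genes of the 10, Lcp1, which encodes the actin bundler L-plastin, changed most. The Lcp1 probe set 1448160_at had signals of 58.7, 221, 216 and 677 on inflamed arrays 1 to 4, against 1.36, 25.0, 1.47 and 1.45 on untreated arrays 1 to 4. Every inflamed signal was above the background ceiling, and the only untreated signal above it was that of array 2. The change was 6.16 ± 0.97 on the log2 scale (standard error, SE, of the limma fit, n = 4 pairs, adjusted p = 0.00666), and the differences within pairs ran from 3.14 to 8.87. Floored at the ceiling the change was 4.21, and with 16 added to each signal it was 3.42, and both passed. The call was lost without the intensity trend in the variance (adjusted p = 0.0586). A second Lcp1 probe set, 1415983_at, had inflamed signals of 14.4, 47.9, 102 and 116, against untreated signals of 6.78, 4.70, 4.05 and 2.62. These groups did not overlap either, but in the fit over 22519 probe sets its change of 3.64 ± 0.93 (SE) had a limma adjusted p of 0.0537 and did not pass. Across the 8 arrays the log2 signals of the Lcp1 probe sets correlated at r = 0.90, over points that share group and array.

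Coro1a encodes coronin 1A, an actin-binding protein of leukocytes. Its brightest probe set, 1416246_a_at, had signals of 38.4, 70.3, 87.4 and 139 on inflamed arrays 1 to 4, against 10.6, 30.4, 17.4 and 2.71 on untreated arrays 1 to 4. The lowest inflamed value thus lay above the highest untreated one. The change of 2.77 ± 0.87 (SE, n = 4 pairs) did not pass over all genes (limma adjusted p = 0.0965). A second Coro1a probe set, 1455269_a_at, had inflamed signals of 68.5, 107, 93.5 and 235, against untreated signals of 2.60, 22.9, 21.8 and 0.900. That probe set passed in the fit over probe sets, with a change of 4.27 ± 1.04 (SE) and a limma adjusted p of 0.0441. The mean of the Coro1a probe sets that passed the filter also passed among genes, with a change of 3.52 and a limma adjusted p of 0.0417, so the call depends on which probe set stands for the gene. The third, 1435288_at, was under the ceiling on all 8 arrays.

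Ptprc, the CD45 gene, was among the dimmest of the 10 relative to background. Its brightest probe set, 1422124_a_at, had signals of 28.2, 3.16, 8.27 and 35.3 on inflamed arrays 1 to 4, against 5.09, 2.36, 1.75 and 0.599 on untreated arrays 1 to 4. Inflamed arrays 1, 3 and 4 were above their ceilings, and inflamed array 2 and all 4 untreated arrays were under theirs. Set against the untreated ceilings, the inflamed mean was 1.63-fold higher. Inflamed array 2 entered as measured although it was under its ceiling, so this is not a strict lower bound. Tested without the filter, the change of 2.75 ± 0.97 (SE, n = 4 pairs) did not pass (limma adjusted p = 0.167 over 18193 genes), although the difference was positive in each pair, from 0.42 to 5.88. The other Ptprc probe set, 1440165_at, was lower in inflamed samples by 1.31 on average and was above the ceiling on no inflamed and 2 untreated arrays. Its log2 signals correlated with those of the brighter probe set at r = -0.31 over 8 arrays, so the probe sets gave no common account of this gene.

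Laptm5, whose product is a lysosomal membrane protein of blood cells that promotes the breakdown of antigen receptors, was far above background in both groups by 1 of its 5 probe sets. The brightest probe set, 1436905_x_at, had signals of 22.9, 653, 217 and 3258 on inflamed arrays 1 to 4, against 119, 620.3, 387 and 130 on untreated arrays 1 to 4. Inflamed array 4 was the highest and inflamed array 1 the lowest of all 8, so the untreated signals lay inside the inflamed range. The change of 0.38 ± 0.93 (SE, n = 4 pairs) did not pass (limma adjusted p = 0.863), and without pair 4 it was -1.04. The ending _x_at marks probes that may also bind other transcripts. Without such probe sets Laptm5 was represented by 1417721_s_at, with signals of 10.0, 22.4, 16.8 and 38.5 on inflamed arrays and 15.99, 16.8, 7.74 and 16.9 on untreated arrays, and its change of 0.51 did not pass either. Of the 5 Laptm5 probe sets, 3 had a higher and 2 a lower mean in inflamed samples, and none of the 3 that were tested passed.

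Aif1 encodes IBA1, a calcium-binding protein of macrophages and microglia that takes part in membrane ruffling and phagocytosis. Its probe set 1418204_s_at had signals of 26.5, 25.9, 81.0 and 141 on inflamed arrays 1 to 4, against 0.954, 0.95, 11.5 and 40.9 on untreated arrays 1 to 4. All inflamed arrays were above background, while untreated arrays 1 and 2 were below it and untreated array 4 lay above inflamed arrays 1 and 2. The inflamed signal was higher in each pair, by 1.79 to 4.8 on the log2 scale. The change was 3.54 ± 0.84 (SE, n = 4 pairs, limma adjusted p = 0.0358). With signals floored at the ceiling the change was 2.16 and with 16 added to each it was 1.48, and both passed. The call was lost without the pair as a block (adjusted p = 0.118), with the pair as a random effect (adjusted p = 0.0802), without the filter (adjusted p = 0.0509), with no intensity trend (adjusted p = 0.0781) and with any 1 of the 4 pairs left out (adjusted p between 0.0539 and 0.127).

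Cd68 encodes macrosialin, a glycoprotein of macrophage lysosomes and endosomes. It had signals of 15.1, 108, 97.1 and 157 on inflamed arrays 1 to 4, against 53.2, 64.0, 1.5 and 27.6 on untreated arrays 1 to 4. Inflamed array 1 was lower than its untreated partner, and the other 3 pairs ran the opposite way. The mean change was 1.86 ± 1.13 (SE, n = 4 pairs), and it did not pass (limma adjusted p = 0.385).

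Csf1r encodes the receptor for CSF1 and interleukin 34, on which most tissue macrophages depend. Its brightest probe set, 1419872_at, had signals of 80.5, 41.3, 1.24 and 101 on inflamed arrays 1 to 4, against 0.834, 570.5, 2.05 and 120.1 on untreated arrays 1 to 4. The highest signal of all 8 was on untreated array 2, and only pair 1 was higher in the inflamed sample. The change of 0.46 ± 1.42 (SE) did not pass (limma adjusted p = 0.896), and it turned to -1.59 without pair 1, to -0.18 with signals floored at the ceiling and to -0.28 with 16 added to each signal. The other 2 probe sets had inflamed means that were higher by 0.54 (1423593_a_at, limma adjusted p = 0.819) and 2.06 (1419873_s_at, too dim to be tested).

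Lyz2 encodes lysozyme M, the bacteria-digesting enzyme whose promoter drives the common myeloid Cre lines. It had signals of 175, 42.1, 371 and 237 on inflamed arrays 1 to 4, against 39.3, 48.5, 96.5 and 16.4 on untreated arrays 1 to 4, all of them above background. Inflamed arrays 1, 3 and 4 exceeded every untreated array, and inflamed array 2 lay among the untreated ones. The change of 1.94 ± 0.70 (SE, n = 4 pairs) did not pass (limma adjusted p = 0.143). Untreated LEC sorts thus held measurable Lyz2 signal on every array. In bulk samples such as these, fewer cells of a type and less RNA per cell cannot be told apart.

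Cybb encodes gp91phox, the catalytic subunit of the phagocyte NADPH oxidase that produces superoxide. Its brightest probe set, 1436778_at, had signals of 41.7, 1.20, 20.3 and 18.0 on inflamed arrays 1 to 4, against 0.695, 1.09, 0.953 and 4.54 on untreated arrays 1 to 4. As for Ptprc, inflamed arrays 1, 3 and 4 were above the ceiling, while inflamed array 2 and every untreated array were not. The inflamed mean was 1.49-fold higher than the untreated ceilings, with inflamed array 2 entered as measured, so this is not a strict lower bound. Without the filter the change of 3.11 ± 0.99 (SE) did not pass (limma adjusted p = 0.123 over 18193 genes). The other 2 Cybb probe sets were above the ceiling on 0 and on 1 inflamed arrays, and correlated with the brightest at r = 0.06 and -0.24 over 8 arrays.

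Chil3 showed the widest separation of the 10. It encodes Ym1, a chitinase-like secreted protein of rodents that is made by alternatively activated macrophages and by neutrophils. Its probe set 1419764_at had signals of 212, 65.9, 168 and 1867 on inflamed arrays 1 to 4, against 0.845, 0.898, 0.601 and 0.845 on untreated arrays 1 to 4. All inflamed arrays were above background and no untreated array was, so the fold has only a bound: the inflamed mean was at least 33.0-fold higher. The fitted change, which is open to the size of the untreated values under background, was 8.35 ± 0.93 (SE, n = 4 pairs, limma adjusted p = 0.00129), and it was 5.04 floored at the ceiling and 4.08 with 16 added to each signal. It passed under each alternative that tested it, with adjusted p between 0.000179 and 0.0227.

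**Figure D2:**
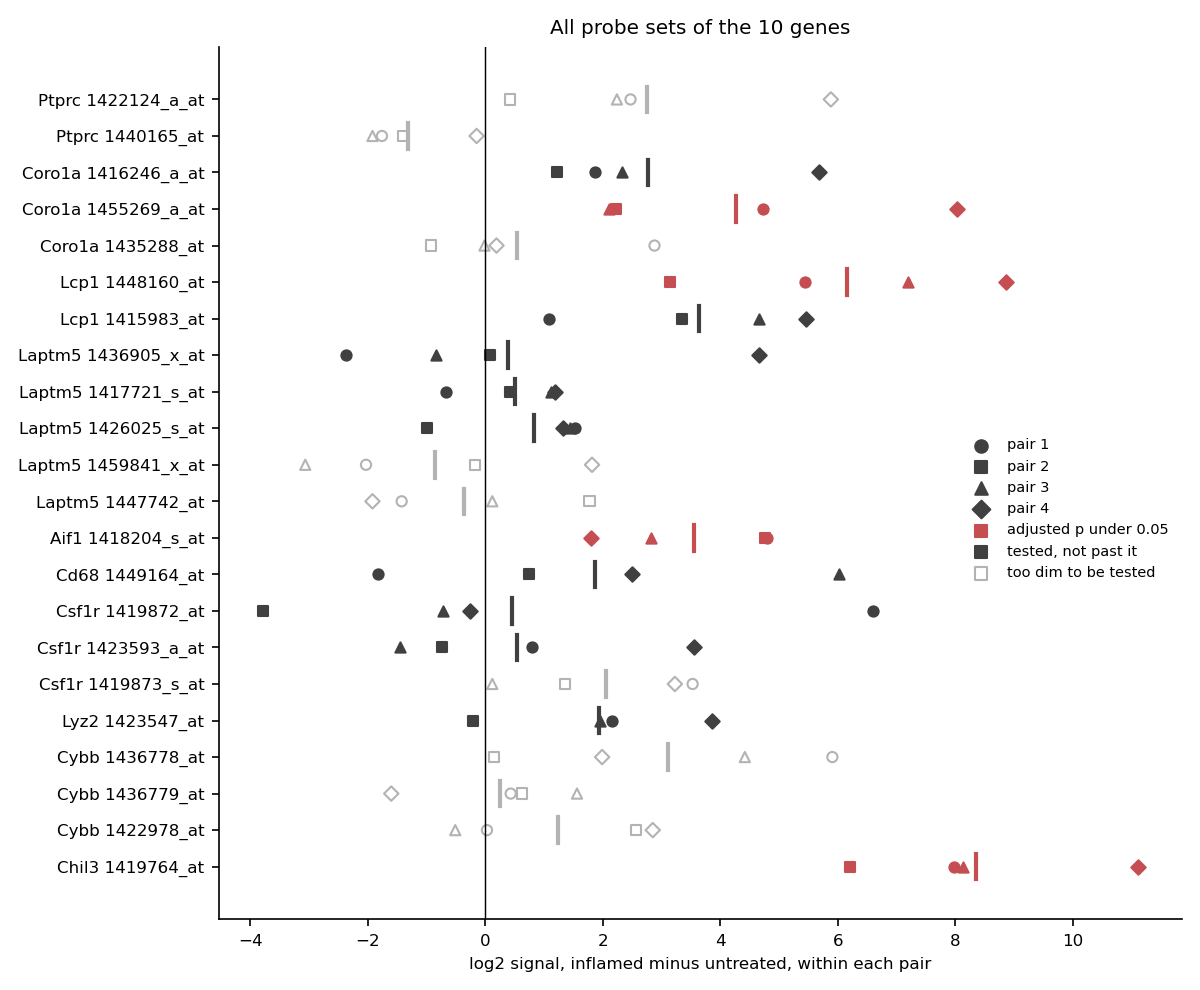
Difference of log2 signal, inflamed minus untreated, for each of the 22 probe sets of the 10 genes, with 1 symbol for each of 4 pairs and a vertical bar at their mean. Probe sets in red passed the limma test over 22519 probe sets (Chil3, Aif1, 1 of Lcp1 and 1 of Coro1a), filled dark ones did not pass, and open grey ones were too dim to be tested.

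Over all 22 probe sets, 13 passed the filter on mean signal and 4 of these were called higher and 0 lower, beside 3.18% and 2.42% of all 22519 tested probe sets. The groups did not overlap, with inflamed higher, for 5 of the 22, beside 3.68% of all probe sets: the Chil3 one, 2 of Lcp1 and 2 of Coro1a. The mean was higher in inflamed samples for 19 of the 22, and 3 probe sets were above the ceiling on no array. On inflamed arrays 1 to 4, 16, 15, 13 and 17 of the 22 were above the ceiling, against 7, 14, 6 and 8 on untreated arrays 1 to 4. Untreated array 2 thus exceeded inflamed array 3. It also had the lowest ceiling of the 8 arrays (5.79) and the largest share of all probe sets above it (62.6%), and their part in its count was not tested. Over all probe sets of the array the share above the ceiling was not higher in inflamed samples, at 53.5% to 56.0% of probe sets, against 54.9% to 62.6% in untreated samples.

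Counted by gene, 10, 8, 9 and 10 of the 10 were above the ceiling on inflamed arrays 1 to 4, against 4, 6, 4 and 5 on untreated arrays 1 to 4. In pairs 1 to 4, 8, 8, 8 and 9 of the 10 genes were higher in the inflamed sample. The median difference of the 10 was 3.63, 0.58, 2.57 and 4.25 in pairs 1 to 4, while that of all tested genes lay between -0.07 and -0.04. Pair 2, which holds the untreated array with the most leukocyte genes above background, had the smallest median difference. The log2 signals of the 8 tested genes correlated with each other across the 8 arrays at r between -0.25 (Lyz2 and Csf1r) and 0.91 (Coro1a and Lcp1), with a median of 0.40 over 28 pairs of genes. As deviations from the group means, which take out the difference between groups, the 28 values lay between -0.42 and 0.75 with a median of 0.25.

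The region just upstream of the transcription start was read from RefSeq (GRCm38.p6) for 9 of the genes. Csf1r was left out of this search, so the counts below do not cover it, although windows of its chromosome stayed among all windows. Shown is the sequence in front of the 3 genes that were called and of the gene whose protein defined the sort. Each line gives 250 bases 5′ to 3′ on the gene's strand, ending at the base before the annotated start. Capitals mark GAGGAA, or TTCCTC where the match is on the opposite strand, the core of sites bound by PU.1, a transcription factor of myeloid cells. Lcp1 and Ptprc have a second annotated start in the table, which is not printed.
Chil3, chr3:106167565-106167814, minus strand: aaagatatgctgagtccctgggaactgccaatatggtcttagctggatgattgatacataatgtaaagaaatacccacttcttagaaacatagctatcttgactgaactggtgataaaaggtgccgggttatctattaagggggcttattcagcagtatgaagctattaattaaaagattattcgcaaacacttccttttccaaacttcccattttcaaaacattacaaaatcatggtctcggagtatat
Lcp1, chr14:75130873-75131122, plus strand: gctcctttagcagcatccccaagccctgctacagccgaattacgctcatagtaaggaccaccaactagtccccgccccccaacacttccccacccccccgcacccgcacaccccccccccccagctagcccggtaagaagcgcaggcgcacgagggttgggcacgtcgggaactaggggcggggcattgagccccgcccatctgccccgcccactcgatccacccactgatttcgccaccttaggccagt
Aif1, chr17:35176053-35176302, minus strand: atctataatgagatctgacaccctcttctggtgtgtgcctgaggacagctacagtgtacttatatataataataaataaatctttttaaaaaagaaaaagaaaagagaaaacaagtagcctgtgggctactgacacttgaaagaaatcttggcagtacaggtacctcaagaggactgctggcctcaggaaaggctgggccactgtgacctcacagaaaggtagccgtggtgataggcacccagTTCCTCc
Ptprc, chr1:138175306-138175555, minus strand: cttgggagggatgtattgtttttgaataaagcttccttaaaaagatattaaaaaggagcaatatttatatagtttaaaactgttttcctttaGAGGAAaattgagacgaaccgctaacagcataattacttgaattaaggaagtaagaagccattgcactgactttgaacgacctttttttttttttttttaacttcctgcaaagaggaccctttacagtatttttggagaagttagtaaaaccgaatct
GAGGAA occurred on either strand in at least 1 window of 4 of the 9 genes: Aif1, 7 bases before its start, Ptprc, 158 bases before, Laptm5, 38 bases before, and Cd68, 225 bases before. Counted by window, 4 of the 12 windows of these 9 genes held it, beside 23.25% of all 32851 windows of this length in the table. Chil3 and Lcp1, the genes with the lowest adjusted p, had no match. TATAAA, the TATA box core, was searched on both strands in the same windows. It occurred in 2 of the 12, those of Laptm5 and 1 of Ptprc, and in 12.37% of all windows. These matches describe the letters of the windows and were not tested against binding.

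To see which leukocyte genes moved beside these 10, lists of markers of leukocytes in general and of their main types were set beside them. Of 35 tested genes on these lists, 9 were called higher and 0 lower, beside 3.91% and 3.02% of all tested genes. A dim gene could pass the filter through high inflamed signals alone, so this count does not stand for all listed genes. Without the filter 12 of 106 listed genes were called higher and 0 lower, beside 2.18% and 1.66% of all genes. On the list of other pan-leukocyte genes 11 of 25 were tested and 2 rose. Cd53, a tetraspanin of leukocytes, had signals of 1019, 568.4, 832 and 2108 on inflamed arrays 1 to 4, against 0.776, 3.93, 0.958 and 4.17 on untreated arrays 1 to 4. All 4 untreated values were under the ceiling, and Cd53 was at least 129-fold higher (fitted change 9.07 ± 0.72 SE, limma adjusted p = 0.000273). Fcer1g, the signalling chain shared by Fc receptors, rose by 4.85 ± 0.95 (SE, limma adjusted p = 0.0165). The remaining 9 tested genes did not pass, among them Tyrobp, the adaptor DAP12, with a change of 2.59 (limma adjusted p = 0.238), and Lsp1, an actin-binding protein of leukocytes, with -0.67 (limma adjusted p = 0.494). The median change of the 25 was 0.65.

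Among 22 measured monocyte and macrophage genes outside the 10, 9 were tested and 2 rose, beside 3.91% of all tested genes. Ctss, a protease of antigen-presenting cells, had signals of 289, 929, 346 and 1734 on inflamed arrays 1 to 4, against 0.920, 143, 130 and 3.53 on untreated arrays 1 to 4. The Ctss groups did not overlap, and its change was 5.34 ± 1.20 (SE, limma adjusted p = 0.0301). Lgals3, galectin 3, was above the ceiling on all 8 arrays and rose by 1.26 ± 0.27 (SE, limma adjusted p = 0.0243). The Fc receptor genes Fcgr1 and Fcgr3 had changes of 3.78 and 2.13 that did not pass (limma adjusted p = 0.113 and 0.114). Without the filter, 5 of the 22 were called higher and 0 lower, beside 2.18% and 1.66% of all genes. The 5 were Ctss, Lgals3, Mpeg1, the macrophage perforin (change 4.65, limma adjusted p = 0.0243), Plac8 (4.66, 0.00972) and Clec7a, the beta-glucan receptor dectin 1 (4.14, 0.0274). The groups did not overlap for Mpeg1, Plac8 and Clec7a, and the median change of the 22 was 1.60. Cd163, Cd14, C1qb and Mertk were tested with the filter and had changes of 3.24, 2.42, 0.90 and -1.04. None of them passed (limma adjusted p = 0.154, 0.232, 0.727 and 0.328). Adgre1 and Mrc1 of the same list were above the ceiling on 2 and 4 inflamed arrays and on 3 and 4 untreated arrays. They had changes of -1.02 and 0.09 without the filter (limma adjusted p = 0.682 and 0.957). Mrc1 had signals of 321 to 615 on untreated arrays, and which cells gave them was not tested. The complement gene C1qa was above the ceiling on 1 inflamed and on no untreated array.

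Of 14 measured neutrophil genes, 2 were bright enough to be tested and both rose, the calprotectin subunits S100a8 and S100a9. Each was above the ceiling on 1 untreated array and passed the filter through its inflamed signals, so 2 of 2 is not a count for the list. Without the filter these 2 of the 14 were called higher and 0 lower, beside 2.18% and 1.66% of all genes. S100a8 had signals of 383, 442, 219 and 478 on inflamed arrays 1 to 4, against 1.25, 6.97, 6.12 and 1.17 on untreated arrays 1 to 4, a change of 7.02 ± 0.81 (SE, limma adjusted p = 0.00151). S100a9 rose by 7.30 ± 0.79 (SE, limma adjusted p = 0.00121). S100a8 and S100a9 are made by neutrophils and monocytes and, in inflamed skin, by keratinocytes. The summed signal of the neutrophil list was 783 to 1690 on inflamed arrays, against 51.3 to 99.0 on untreated arrays. S100a8 and S100a9 made up most of it on inflamed arrays, and the other 12 genes summed to 94.7 to 172 on inflamed arrays, against 48.1 to 82.2 on untreated arrays. The median change of the 14 was 0.89. Of its 14 genes 5 to 8 were above the ceiling on inflamed arrays, against 0 to 8 on untreated arrays.

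No gene of the lymphocyte lists passed. Of 15 measured T and NK cell genes 4 were tested and 0 passed limma, 1 of them, Thy1, with an unadjusted p under 0.05 (change -0.65, limma adjusted p = 0.0757). The median change of the 15 was -0.08, and Cd3e was above the ceiling on 1 inflamed and on no untreated array. Thy1, which LECs also express, dominated that list, and the summed signal was 1631 to 2281 on inflamed arrays, against 2577 to 3196 on untreated arrays. Of 8 measured B cell genes 1 was tested, Ighm, which did not pass (change -0.25, limma adjusted p = 0.901), and 4 of the 8 were above the ceiling on no array. The remaining 3 of the 9 calls were Hdc on the mast cell list and Irf8 and Cd74 on the dendritic cell list.

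**Figure D3:**
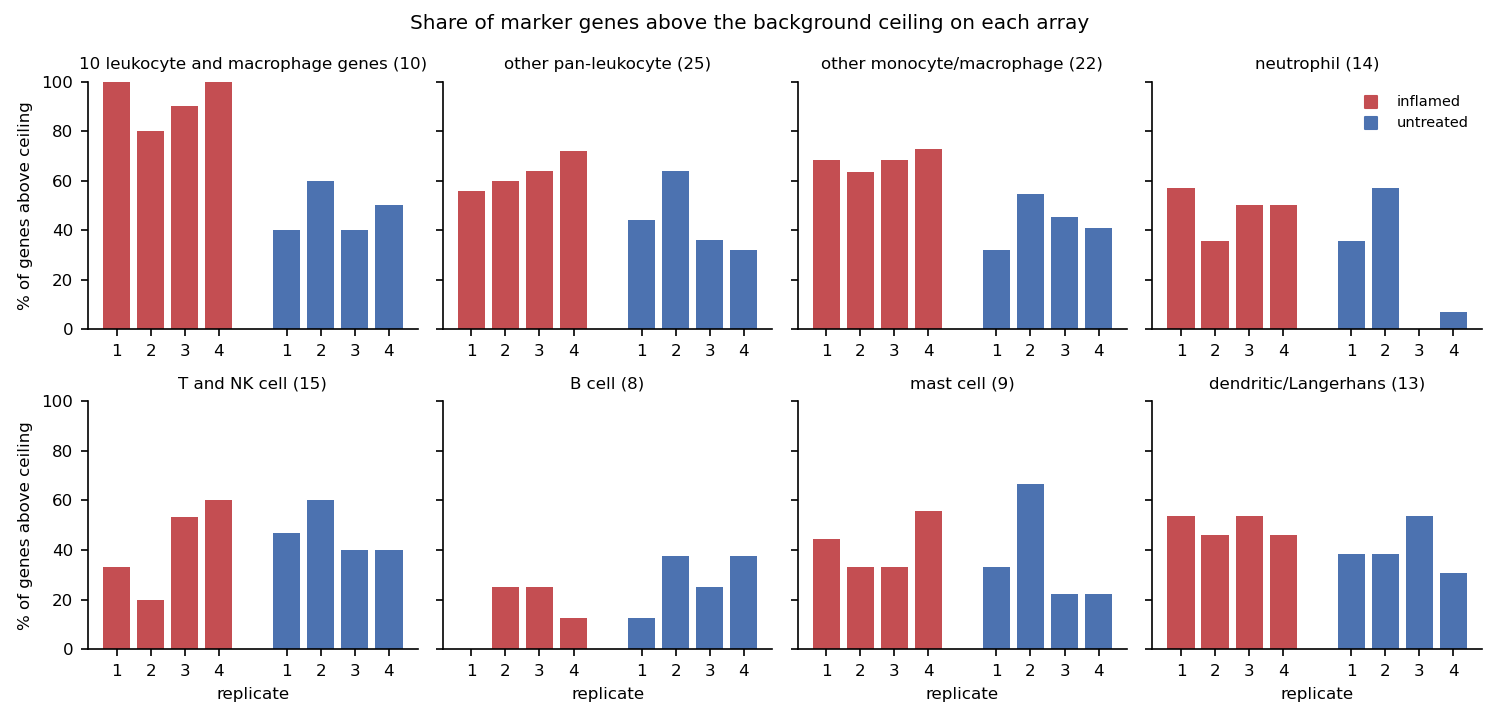
Percent of the genes of each list whose brightest probe set was above the background ceiling, on inflamed (red) and untreated (blue) arrays 1 to 4, with the number of genes in brackets. For the 10 leukocyte and macrophage genes all inflamed bars (10, 8, 9 and 10 genes) are above all untreated bars (4, 6, 4 and 5 genes). Untreated array 2 reaches or passes inflamed arrays on the pan-leukocyte, neutrophil, T cell, B cell and mast cell lists.

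Several of the 10 proteins work in pathways whose other genes were also measured. Csf1, the ligand of the Csf1r protein, had signals of 1497, 1841, 543 and 440.3 on inflamed arrays 1 to 4, against 73.4, 51.9, 199 and 15.8 on untreated arrays 1 to 4. Its change of 3.94 ± 0.61 (SE, limma adjusted p = 0.00618) stood beside the change of 0.46 of the receptor gene, which did not pass, and the difference between them was not tested. The other ligand, Il34, was above the ceiling on 0 inflamed and 1 untreated arrays. Csf2rb, the beta chain shared by receptors for GM-CSF, interleukin 3 and interleukin 5, rose by 4.99 ± 1.16 (SE, limma adjusted p = 0.0336). Of the phagocyte oxidase genes 4 of 5 were tested and 0 passed limma, with 0 at an unadjusted p under 0.05: Ncf4 (change 2.33), Ncf1 (0.92), Rac2 (0.40) and Cyba (-0.41), with limma adjusted p of 0.236 to 0.870.

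In the list of chitinase-like and alternative activation genes 5 of 8 were tested. Of these 3 rose, Chil3 itself, Chil1 and Arg1, beside 3.91% of all tested genes. Chil3 and Arg1 passed the filter through their inflamed signals, so 3 of 5 is not a count for the list. Without the filter 3 of the 8 were called higher and 0 lower, beside 2.18% and 1.66% of all genes. Chil1, a secreted relative of Chil3 that many tissue cells also make, had signals of 6081, 2644, 2044 and 6375 on inflamed arrays 1 to 4, against 649.9, 209.9, 118 and 234 on untreated arrays 1 to 4. Unlike Chil3 it was well above background in both groups, and it rose by 3.94 ± 0.28 (SE, limma adjusted p = 0.000139). Arg1, arginase 1, was under the ceiling on all untreated arrays and was at least 37.4-fold higher in inflamed samples (limma adjusted p = 0.00129). Retnla, another gene of alternatively activated macrophages, had signals of 161, 175, 2.16 and 1309 on inflamed arrays 1 to 4, against 5.03, 8.19, 46.2 and 6.31 on untreated arrays 1 to 4. Pair 3 ran against the other 3 pairs, and its change of 3.17 ± 1.63 (SE) did not pass (limma adjusted p = 0.299).

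Most of the 10 genes have relatives that are not confined to leukocytes. Chil1, the relative of Chil3 given above, was called higher and is not among the 16 others counted here. Of these 16 genes 14 were tested and 0 passed limma in either direction, beside 3.91% of all tested genes called higher and 3.02% lower. An unadjusted p under 0.05 was reached by 5 of the 14, and the share of all genes under it was not counted. The median change of the 16 was -0.26. Beside Ptprc, the endothelial phosphatases Ptprb and Ptprm had changes of -0.71 and -0.74. Beside Coro1a, the broadly expressed coronins Coro1b and Coro1c had changes of -0.33 and -0.28. Beside Lcp1, the plastin of other cells, Pls3, had signals of 737, 225, 265 and 348 on inflamed arrays 1 to 4, against 715, 503.6, 311 and 336 on untreated arrays 1 to 4, a change of -0.32 ± 0.35 (SE, limma adjusted p = 0.644). The epithelial plastin Pls1 was too dim to be tested. Laptm4a and Laptm4b, the relatives of Laptm5, had changes of -0.23 and 0.79, and Lamp1 and Lamp2, lysosomal proteins of the family of Cd68, of -0.31 and 0.57. Aif1l had a change of 2.40 ± 0.83 (SE), in the direction of Aif1, and did not pass (limma adjusted p = 0.126).

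Among the relatives of the remaining genes, the receptor tyrosine kinases Pdgfra and Pdgfrb had changes of 1.57 and -0.24 beside Csf1r, and Kit, the third, was too dim to be tested. Lyz1, the Paneth cell lysozyme, whose sequence is close to that of Lyz2, had a change of 2.04 (limma adjusted p = 0.320), and binding of RNA of 1 of them to probes of the other was not tested. Nox4, the oxidase of endothelial cells and fibroblasts, had signals of 16.1, 5.38, 2.70 and 11.9 on inflamed arrays 1 to 4, against 30.6, 49.6, 136 and 63.7 on untreated arrays 1 to 4. Its groups did not overlap, and its change of -3.05 ± 0.89 (SE) did not pass (limma adjusted p = 0.0770). Differences in change between a gene and its relative were not tested.

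**Figure D4:**
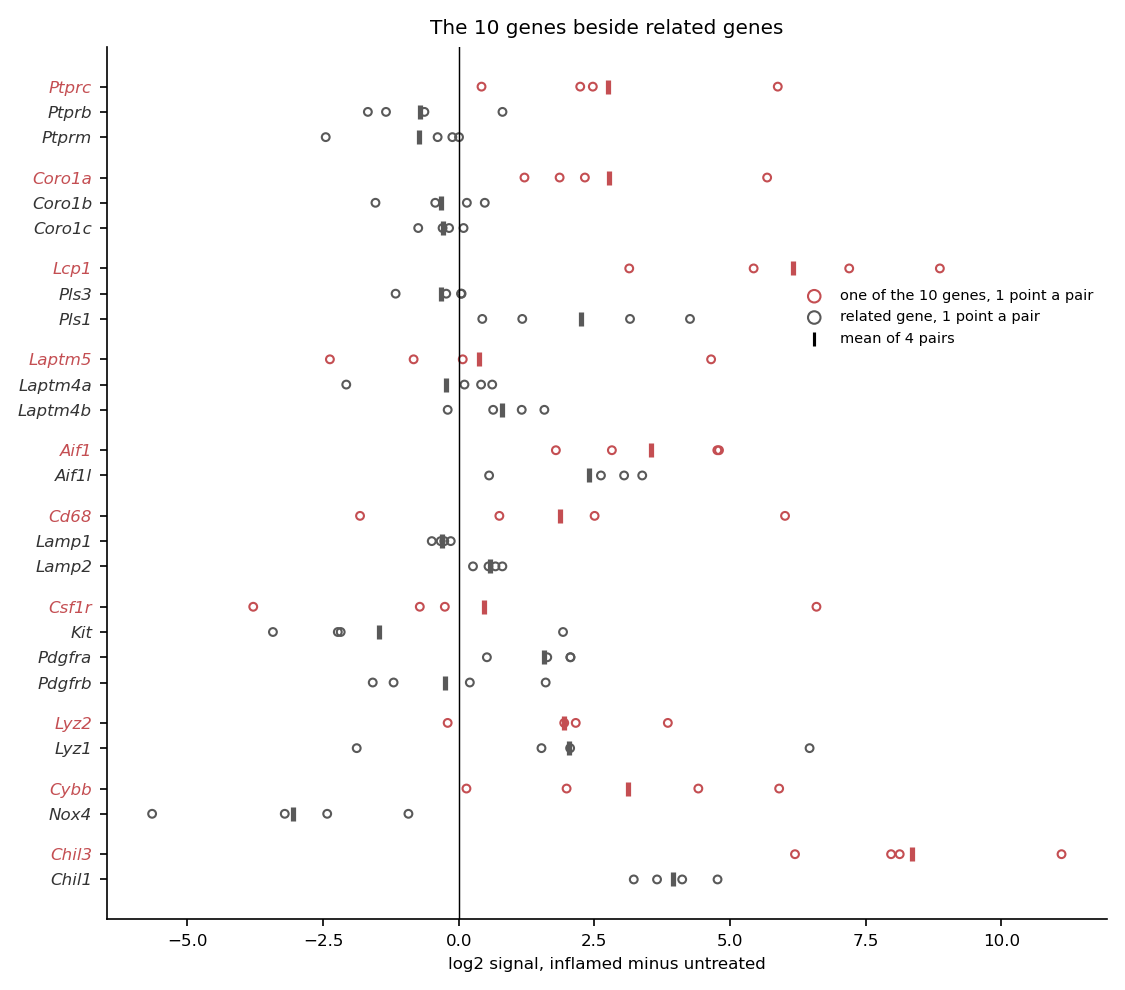
Difference of log2 signal, inflamed minus untreated, for the 10 genes (red) and their relatives outside leukocytes (grey), with 1 circle for each of 4 pairs and a bar at the mean. Chil3, its relative Chil1 and Lcp1 lie to the right in all 4 pairs. Pls3, Coro1b and Coro1c scatter around 0, and Nox4 lies to the left in all 4 pairs.

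The genes whose log2 signals followed the mean scaled profile of the 8 tested genes most closely across the 8 arrays were Higd1a (r = 0.98), Ccl24 (0.98), Tlcd1 (0.97), Hk1 (0.97) and Sltm (0.96). Of these Ccl24, which encodes eotaxin 2, a chemokine for eosinophils, was called, with a change of 5.90 ± 1.01 (SE, limma adjusted p = 0.00925), and the other 4 did not pass. Higd1a lay near the threshold (change 1.56, limma adjusted p = 0.0511) and was called in 7 of 16 alternatives. Ccl24 had signals of 74.7, 61.6, 169 and 949.9 on inflamed arrays 1 to 4, against 1.06, 13.5, 1.06 and 3.86 on untreated arrays 1 to 4. As for Lcp1, the highest inflamed array was 4 and the highest untreated array was 2. By deviations from the group means the closest genes were Pnpla6 (r = 0.95), Keap1 (0.95), Pip5k1a (0.94), Cyb5d1 (0.94) and Rtkn (0.94), none of which passed. All these r values were picked as the highest among all tested genes.

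Genes of the sort and of LEC identity, and markers of other skin cells, were set beside these results. Pecam1, which encodes the CD31 used in the sort, had signals of 531, 1316, 1607 and 527.3 on inflamed arrays 1 to 4, against 1314, 1539, 1499 and 1451 on untreated arrays 1 to 4. Inflamed arrays 1 and 4, the arrays with all 10 leukocyte genes above background, had the lowest Pecam1 signals. The summed signal of the 10 genes was the lowest of the inflamed group on array 1 (699) and the highest on array 4 (6631). Untreated array 2, with the most leukocyte genes above background of its group, had the highest untreated Pecam1 signal. A link between them was not tested. The Pecam1 change of -0.72 ± 0.29 (SE) did not pass (limma adjusted p = 0.188). Pdpn, the podoplanin gene, and the LEC genes Prox1 and Lyve1 had changes of 0.56, -1.44 and -0.18 that did not pass (limma adjusted p = 0.0605, 0.0618 and 0.467). Among 16 alternatives Prox1 was called lower in 6, with the mean of its probe sets giving -1.86 (limma adjusted p = 0.00702), Pdpn higher in 3 and Lyve1 lower in 2. Across the 8 arrays the profile of the 8 tested leukocyte genes correlated with Pdpn at r = 0.89, with Lyve1 at 0.10, with Prox1 at -0.37 and with Pecam1 at -0.53, as a description of arrays that also differ by group. By deviations from the group means the values were 0.81 for Pdpn, 0.72 for Lyve1, 0.40 for Prox1 and -0.17 for Pecam1.

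Of 9 lymphatic endothelial genes 3 were lower in inflamed samples (Mmrn1, Nrp2 and Reln) and of 10 pan-endothelial genes 3 (Kdr, Tie1 and Tek). Of all tested genes 3.02% were called lower. The summed signal of the lymphatic list was 12737 to 22048 on inflamed arrays, against 22817 to 30308 on untreated arrays, so the groups did not overlap. That of the pan-endothelial list did overlap, at 6171 to 12477 on inflamed arrays, against 9861 to 16978 on untreated arrays. Of 9 tested fibroblast genes 1, the matrix gene Lum, rose (1.49 ± 0.29 SE, limma adjusted p = 0.0167), beside 3.91% of all tested genes. The summed signal of the fibroblast list was 10537 to 24537 on inflamed arrays, against 4430 to 20272 on untreated arrays. Of 8 tested keratinocyte genes 4 were lower in inflamed samples (Krt2, Krt15, Krt10 and Krt5), beside the same 3.02% of all tested genes. The summed signal of the keratinocyte list was 136 to 948 on inflamed arrays, against 885 to 3959 on untreated arrays. The pericyte and the erythrocyte and platelet lists had 0 calls among 5 and 1 tested genes. As a sign of RNA quality, the log2 ratio of the 3′ to the 5′ control probe set of Gapdh was 3.06 ± 0.33 on inflamed arrays and 3.85 ± 0.34 on untreated arrays (SD, n = 4 each). It was lower in the inflamed sample of all 4 pairs, with an exact two-sided sign-flip permutation p of 0.125, the smallest that 4 pairs can give. For Actb the ratios were -0.07 and -0.08 (p = 0.75, same exact test). These cell type lists and the Gapdh ratio moved with the groups, and their part in the leukocyte gene results was not tested.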

How the data were processed

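RNA of 8 samples of sorted cells, each pooled from 3 mice, was amplified, labelled with biotin and hybridised to 8 single-colour arrays, per the labels' protocols. The deposited values are intensities, linear and 1 for each probe set on each array, and the authors computed them with MAS5, per the submitters' processing notes. For MAS5, no version, scaling or detection filter is given in the sources used here. Of 45037 probe sets other than 64 controls, 34945 named 1 gene in GEO's platform annotation, 932 several and 9160 none, and genes were named from the first kind only. RefSeq's table held the gene IDs of 34741 of them, and 0 symbols changed.

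The authors' scaling was kept and signals were converted to log2. Probe sets whose mean log2 signal was below the overall median (3.30, a signal of 9.84) were left out, and the brightest probe set stood for a gene. Genes and, separately, probe sets were tested two-sided with R 4.3.3 and limma 3.58.1 (lmFit and a trended eBayes), the pair being a fixed block, and adjusted by Benjamini-Hochberg over all. The SE is the moderated one of this fit, which was tested on simulated data. For a gene under the ceiling on all arrays of 1 group a bound is given, the brighter group's mean log2 signal over the mean ceiling of the dimmer. Signals of the brighter group entered as measured. For Ptprc and Cybb, with an inflamed array under its ceiling, the value is therefore not a strict bound. The number of arrays limits the precision, and p-values describe pools of mice.

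That numbers mark pairs is stated in the series' design. Deviations from the group means correlated across genes at 0.16, -0.00, 0.08 and 0.03 within pairs 1 to 4. The 10 genes, the gene lists and the ceiling rule were chosen with earlier results of these data known. Named were the 10 genes, up to 4 genes of each list described with the smallest p, the relatives, Pecam1, Pdpn, Prox1 and Lyve1, and the 5 genes most alike by each correlation. Adgre1, Mrc1, Cd163, Cd14, C1qb, Mertk and C1qa were named outside this rule, from the marker lists, after their values were seen. The same holds for Mpeg1, Plac8, Clec7a, Cd3e, Il34, Cpa3 and Cd207.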

Additional observations from a re-analysis of the deposited data

Results flagged for a closer look

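In 7 of 44 groups of 4 arrays (22 probe sets in 2 groups) 1 array lay far from the other 3 by Dixon's ratio on the log2 signal. Chance gives about 1 in 20 such groups, or 2.2 of 44. Of the 7 values only that of Lcp1 was above the ceiling. The Lcp1 probe set 1448160_at was 25.0 on untreated array 2, where the lowest of that group was 1.36, and the Lcp1 groups still did not overlap. The Laptm5 probe set 1417721_s_at was 7.74 on untreated array 3, where the highest was 16.9 and the other 3 arrays were above the ceiling. The remaining values were Chil3 at 0.601 on untreated array 3, Cybb 1422978_at at 1.79 on untreated array 3, Ptprc 1440165_at at 1.73 on untreated array 4, Coro1a 1435288_at at 5.04 on inflamed array 1 and Laptm5 1447742_at at 5.62 on inflamed array 2.

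The probe set 1425451_s_at names Chil4 and Chil3 together and therefore counted for neither gene. It had signals of 95.6, 69.7, 19.6 and 548 on inflamed arrays 1 to 4, against 0.677, 0.868, 3.78 and 0.775 on untreated arrays 1 to 4. Its change was 6.33 ± 1.16 (SE, n = 4 pairs, limma adjusted p = 0.0136 over all probe sets), and inflamed samples were at least 11.8-fold higher. Which of these genes gave the signal was not tested.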

How the results depend on the processing

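The 10 genes gave 3 calls, their probe sets 4, the other leukocyte lists 9 and all genes 424 higher and 328 lower. Without the pair as a block these were 2, 4, 8 and 384 higher and 301 lower, and the Aif1 call was lost (adjusted p = 0.118); with the pair as a random block they were 2, 4, 8 and 434 higher and 383 lower, and Aif1 was lost again (adjusted p = 0.0802). With no intensity trend they were 1, 1, 5 and 94 higher and 47 lower. Without the filter 2 of 10 genes and 2 of 22 probe sets passed, and 12 list genes. A stricter filter, at the 75th percentile, left Lyz2 and Laptm5 alone of the 10, with 0 calls among genes and 0 among probe sets, and 5 list genes. Leaving out each pair gave 2 genes, 2 probe sets, 5 to 7 list genes and 208 to 306 higher and 126 to 198 lower genes in all; fewer pairs were tested there. Median centring called 719 genes higher and 227 lower, and it moved the median change of all tested genes to 0.22, against -0.09 as deposited. All 8 tested genes of the 10 stayed higher on the mean under each of 3 scalings, with a median change of 2.53 to 2.66. Quantile and cyclic loess normalization each called 1 list gene lower. Changes of sign, all of changes that did not pass, were those of Lyve1 (0.12 with median centring), Csf1r (-0.18 floored at the ceiling, -0.28 with 16 added, -1.59 to 1.87 with pairs left out), Laptm5 (-1.04 to 1.30 with pairs left out), Pnpla6 (-1.20 to 0.35) and Keap1 (-0.29 to 0.41). The causes were not tested. Signals near the ceiling, as for Ptprc and Cybb, limit what a fold can show. Leaving out _x_at probe sets, and pairs 2 and 4 for the counts without overlap, was chosen after seeing the data.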

Other observations

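Of 9 measured mast cell genes 3 were tested and 1 rose, Hdc, the enzyme that makes histamine, beside 3.91% of all tested genes. Hdc was above the ceiling on 1 untreated array and passed the filter through its inflamed signals. Without the filter 1 of the 9 was called higher and 0 lower, beside 2.18% and 1.66% of all genes. Hdc had signals of 299, 116, 189 and 222 on inflamed arrays 1 to 4, against 1.08, 2.72, 10.6 and 2.07 on untreated arrays 1 to 4, a change of 6.11 ± 0.83 (SE, n = 4 pairs, limma adjusted p = 0.00329). The other 2 did not pass: Tpsb2, a tryptase (change 0.54, limma adjusted p = 0.748), and Gata2, a transcription factor that endothelial cells also express (-0.06, limma adjusted p = 0.938). Cpa3, mast cell carboxypeptidase, was above the ceiling on 0 inflamed and 1 untreated arrays.

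Among 13 measured dendritic and Langerhans cell genes 5 were tested and 2 rose, beside 3.91% of all tested genes. Without the filter 2 of the 13 were called higher and 0 lower, beside 2.18% and 1.66% of all genes. Irf8, a transcription factor of myeloid cells that interferon also induces, had signals of 505.4, 650.4, 840.2 and 411 on inflamed arrays 1 to 4, against 81.8, 71.0, 56.7 and 69.1 on untreated arrays 1 to 4, a change of 3.07 ± 0.43 (SE, limma adjusted p = 0.00395). Cd74, the invariant chain of MHC class II, rose by 4.27 ± 0.95 (SE, limma adjusted p = 0.0287). H2-Aa, a class II chain, had a change of 3.01 that did not pass (limma adjusted p = 0.107). The Langerhans cell lectin Cd207 was above the ceiling on 1 inflamed and 0 untreated arrays.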
